A study of Mus musculus with 2 samples.

Results

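The class labelled pericytes consists of the cells that carry the value pericytes in the authors' deposited annotation of lung fibroblastic stroma, which has 5 class values. Cells were kept when at least 500 genes were detected and at most 10% of the reads were mitochondrial, which left 596 of the 6089 kept cells in the high fat diet library and 250 of the 8140 kept cells in the normal chow library, 846 of 14229 in all. Both libraries came from lungs of C57Bl/6J mice, an inbred strain with no engineered allele named in the labels, and the feeding period was 16 weeks for each. The groups are called HFD and NC as in the labels, and each has 1 library made with a 10x Genomics 3′ kit. The labels give neither the age of the animals nor how many animals went into a library, so pooled animals cannot be told apart from single ones, and the hour of tissue collection is not given either. With 1 library per diet no test between diets exists, and every difference below compares these libraries.

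Mural cells wrap the endothelial tube of blood vessels. Pericytes lie on capillaries inside the basement membrane of the endothelium, whereas smooth muscle cells form contractile layers around arteries, larger veins and airways. In smooth muscle, calcium and calmodulin switch on myosin light chain kinase, and the smooth muscle myosin Myh11 then pulls on filaments of alpha-actin, which is encoded by Acta2. Serum response factor and its coactivator myocardin drive many of these genes through the CArG box, a motif that reads CC, then 6 bases that are each A or T, then GG. In lung, Higd1b, Cox4i2, Kcnj8, Trpc6 and Vtn are used as markers of capillary pericytes, while Cspg4 and Notch3 are found in pericytes and in vascular smooth muscle.

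The promoters of 3 contractile genes are shown because their transcripts turn up in the class and because each window holds a CArG box, printed in capitals. They were taken from the RefSeq table of build GRCm38.p6, on the strand of the gene and 5′ to 3′. Actc1, cardiac alpha-actin, is shown for chr2:114052876-114053025 on the minus strand, Myl9, a regulatory myosin light chain, for chr2:156775293-156775463 on the plus strand, and Ldb3, a protein of the actin anchoring discs, for chr14:34588682-34588831 on the minus strand.
Actc1: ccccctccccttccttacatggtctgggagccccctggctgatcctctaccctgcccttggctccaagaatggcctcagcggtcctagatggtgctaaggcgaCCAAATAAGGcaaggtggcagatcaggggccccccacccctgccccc
Myl9: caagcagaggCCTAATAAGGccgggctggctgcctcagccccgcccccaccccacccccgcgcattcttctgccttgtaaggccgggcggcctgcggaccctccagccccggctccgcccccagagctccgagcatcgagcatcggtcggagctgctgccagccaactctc
Ldb3: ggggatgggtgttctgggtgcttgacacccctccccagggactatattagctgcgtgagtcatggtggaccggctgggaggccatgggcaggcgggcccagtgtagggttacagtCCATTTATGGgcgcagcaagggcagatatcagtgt
The motif begins 47 bases before the annotated start of Actc1, 161 bases before that of Myl9 and 35 bases before that of Ldb3. Searched over 250 bases before the start on both strands, the motif stood in 439 of 27025 promoters in the table (1.62%). It stood in 3 of the 22 smooth muscle contractile genes that matched the table, of 28 in the list (13.6%), and in 1 of the 11 pericyte genes that matched, of 16 (9.09%). Actc1 is in the striated muscle list instead, so it is not among those smooth muscle contractile genes. A match is a description of the letters and not evidence that a factor binds there.

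Before the cell filter the class held 730 HFD cells and 318 NC cells, of which 18.4% and 21.4% were removed, against 12.7% and 9.71% of all cells. The median cell of the class had 19714.5 counts and 2189 detected genes in HFD and 15459.5 counts and 2076.5 genes in NC, above the medians of the pooled other classes, 9541 and 7401.5 counts. Its median share of mitochondrial reads was 6.13% in HFD and 5.72% in NC, against medians from 3.39% to 3.91% in the other 4 classes. A second annotation column in the same tables named 519 of the HFD cells and 189 of the NC cells peri, gave no name to 65 and 55, and named 12 and 6 otherwise. Further annotation columns differed from each other in HFD. A later column named 63 of the 596 HFD cells pericytes and 396 cells of other classes, whereas in NC it named 225 of the 250 cells and 3 others. A subset column named 574 of the HFD cells pericytes and 1 cell of other classes, and in NC 234 and 1. None of these further columns was used. The HFD class is taken as the rule gives it, with Acta2, Tagln and Myh11 counted together in 97.7% of its cells. The libraries shared 17 cell barcodes over all cells and 0 within the class.

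The class made up 9.79% of the kept HFD cells (95% Clopper-Pearson interval 9.05 to 10.6) and 3.07% of the kept NC cells (2.71 to 3.47). Both intervals cover counting error only. The share in HFD was above that in NC in the setting with the strictest cell filter too, 4.36% against 1.51%. How many cells of a type are recovered from tissue and how many the tissue holds cannot be told apart here.

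The genes that lead the class encode the contractile apparatus. Levels are given as counts per 1000000 (CPM) of the counts summed over the cells of a class in 1 library. Acta2 stood at 12769 CPM in HFD and 12126 in NC, against 793 and 989 in the class labelled myofibroblasts and 138 and 179 in the other 4 classes pooled. Tagln, an actin-binding protein of smooth muscle, stood at 9819 and 9818 CPM in the class, at 1706 and 2470 in myofibroblasts and at 328 and 430 in the pooled classes. Both genes were highest in the class in each library, with myofibroblasts next. Acta2 had a count in 99.2% and 98.0% of the cells of the class, and in 25.9% and 21.1% of the pooled cells, which were shallower.

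Myh11, the smooth muscle myosin heavy chain, separated the class from the rest more sharply. Its level was 2878 CPM in HFD and 2369 in NC, against 96.0 and 146 in myofibroblasts and 15.8 and 13.5 in the pooled classes. It had a count in 98.0% and 94.0% of the cells of the class and in 5.26% and 3.23% of the pooled cells. When every cell was thinned to 2000 counts the shares were 94.3% and 86.8%, against 2.51% and 1.91%, so a wide gap in detection was present at equal depth. Actc1 stood at 2039 and 2748 CPM in the class, against 15.2 and 14.3 in myofibroblasts. Cspg4, the proteoglycan NG2 of the mural cell surface, stood at 134 and 99.8 CPM, against 25.6 and 38.9 in myofibroblasts, and after thinning was counted in 18.6% and 16.8% of the cells against 0.51% and 0.75% of the pooled cells. Notch3, the Notch receptor of mural cells, stood at 126 and 87.3 CPM, against 28.7 and 26.8 in myofibroblasts. Each of these genes was highest in the class in both libraries. Tcap, which encodes the sarcomere protein telethonin, was shared more widely, at 738 and 186 CPM in the class and 412 and 155 in myofibroblasts.

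**Figure D1:**
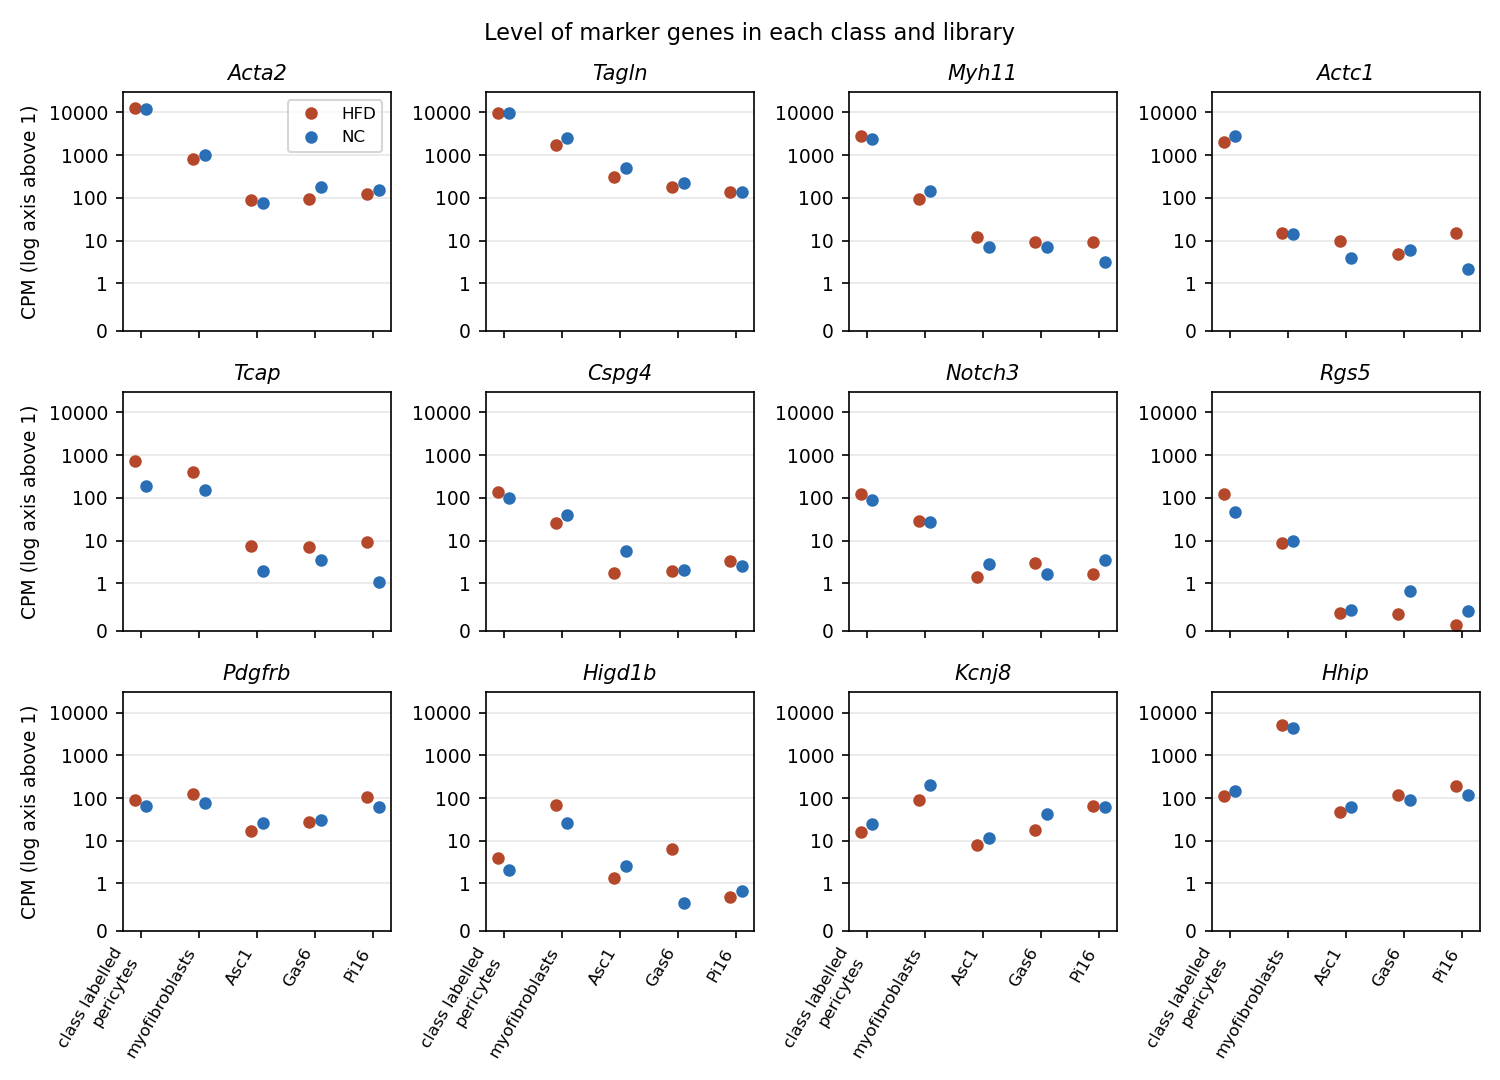
Level of marker genes in each of the 5 classes, as CPM on an axis that is logarithmic above 1, with 1 point per library (HFD and NC). In the class labelled pericytes Acta2 stands at 12769 and 12126 CPM, whereas Higd1b stands at 3.86 and 2.04 CPM there and at 69.0 and 26.2 CPM in myofibroblasts.

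Contractile markers were detected together in the same cells. Acta2, Tagln and Myh11 all had a count in 582 of 596 HFD cells (97.7%, exact interval 96.1 to 98.7) and in 234 of 250 NC cells (93.6%, 89.8 to 96.3). Only 1 HFD cell and 2 NC cells had none of these genes. Cspg4 or Notch3 was counted in 378 HFD cells (63.4%) and 150 NC cells (60%), and of those cells 1 and 4 lacked Myh11, which was counted in nearly all cells of the class. All 7 markers were counted in 98 HFD cells (16.4%) and 13 NC cells (5.20%).

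Among 28 smooth muscle contractile genes, 27 were in the tables and 23 were highest in the class in both libraries. Of all genes that reached 10 CPM in the class, in myofibroblasts or in the pooled classes, 25.3% were highest in the class in HFD and 23.9% in NC, which is the background for such counts. Their summed level was 49048 CPM in HFD and 45502 in NC, against 8145 and 8730 in myofibroblasts and 4365 and 4119 in the pooled classes. Mustn1, a small nuclear protein of the musculoskeletal system, was an exception, with 1475 and 1024 CPM in the class and 2023 and 1555 in myofibroblasts. Pdlim3, a protein of actin anchoring structures, stood at 198 and 191 CPM in the class and at 376 and 199 in myofibroblasts.

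The data go against the label in part, because the genes that define lung pericytes were not those of this class. Higd1b, a mitochondrial protein gene, stood at 3.86 CPM in HFD and 2.04 in NC, with a count in 1.17% and 0.800% of the cells, and at 69.0 and 26.2 CPM in myofibroblasts. Trpc6, a cation channel, stood at 1.36 and 3.63 CPM against 15.2 and 13.7 in myofibroblasts. Vtn, the adhesive protein vitronectin, stood at 1.51 and 0.907 CPM against 19.7 and 8.32. All of these genes were near 0 in the class and several times higher in myofibroblasts. Kcnj8, the pore of a potassium channel gated by ATP, stood at 16.1 and 25.2 CPM, below 92.1 and 202 in myofibroblasts. Its partner subunit Abcc9 stood at 49.3 and 47.9 CPM, below 106 and 139. Cox4i2, a respiratory chain subunit, stood at 33.0 and 36.1 CPM against 155 and 102.

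Other genes of the pericyte list were high in the class. Rgs5, a brake on G protein signals in mural cells, stood at 123 CPM in HFD and 46.5 in NC, against 9.01 and 9.81 in myofibroblasts. Pdgfrb, the receptor that draws mural cells to endothelium, stood at 91.1 and 66.0 CPM, below 122 and 78.5 in myofibroblasts and close to 108 and 63.3 in the class labelled Pi16 fibroblasts. Of 16 pericyte genes, 6 were highest in the class in each library and 7 in HFD and 5 in NC were highest in myofibroblasts. The list thus split between these classes, and its summed level was 1585 and 1152 CPM in the class and 1370 and 1064 in myofibroblasts.

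Genes that distinguish vascular from airway muscle leaned to the vascular side. Of 13 vascular smooth muscle genes, 11 in HFD and 10 in NC reached 10 CPM, and 10 in each library were highest in the class. Mcam, a surface adhesion protein, stood at 266 and 213 CPM against 53.8 and 22.9 in myofibroblasts, and Ntrk3, a neurotrophin receptor, at 106 and 92.3 against 65.3 and 38.6. Sost, which encodes the WNT inhibitor sclerostin, stood at 208 and 85.7 CPM and at 0 in myofibroblasts of both libraries. Hhip, a Hedgehog inhibitor that marks airway smooth muscle and ductal myofibroblasts, stood at 113 and 147 CPM in the class and at 5100 and 4248 in myofibroblasts, and was counted in 6.38% and 11.6% of the cells of the class. Lgr6 was the only airway gene highest in the class, at 113 and 65.1 CPM against 52.7 and 49.9.

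Most genes of heart and skeletal muscle were low or at 0. Of 22 striated muscle genes, 16 were in the tables, and the 4 that reached 10 CPM were highest in the class in both libraries. Tnnt2, cardiac troponin T, stood at 44.2 CPM in HFD and 32.2 in NC, and Ryr2, the calcium release channel of heart, at 26.7 and 25.2. Acta1, skeletal alpha-actin, had a count in 1 cell of each library. Actc1 and Tcap were thus joined by Tnnt2 and Ryr2 at lower level.

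Most markers of cells outside the stroma were low or at 0. Pecam1 of endothelium, Epcam and Sftpc of epithelium, Ptprc of leukocytes and Msln of mesothelium were counted in 0 cells of the class, which allows a share of cells with a count of up to 0.503% in HFD and 1.2% in NC and sets no limit on cells that express the gene below detection. Other genes of these lists had counts in some cells. Scgb1a1 was counted in 20 HFD cells and 8 NC cells, and Krt18 and Lyz2 each in 14 and 2. Plac8 was counted in 10 and 11, and Vwf in 13 and 0. Summed levels were 7.9 and 8.4 CPM for endothelial genes, 14.1 and 19.7 for epithelial genes, and 10.1 and 30.8 for immune genes. The cartilage list differed between libraries, with 86.0 CPM in HFD and 950 in NC, of which Cytl1 gave 41.5 and 761 CPM from 1 and 4 cells. At least 3 of 4 cartilage genes were counted in 1 HFD cell and 4 NC cells, and at least 3 of 4 Schwann cell genes in 2 and 0. Transcripts of neighbouring fibroblasts were present at low level. Inmt, a methyltransferase of alveolar fibroblasts, stood at 597 and 504 CPM and had a count in 41.4% and 40.4% of the cells of the class, against 5497 and 4085 CPM and 91.3% and 90.2% of the shallower pooled cells. Dcn, the matrix proteoglycan decorin, stood at 134 and 274 CPM in the class and was counted in 11.9% and 22% of its cells. Free RNA in the droplets was not measured.

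The 15 genes with the highest ratio of the class to the pooled classes, taking the lower of the libraries, were P2rx1, Susd5, Pcp4l1, Actc1, Mylk4, Myh11, Sost, Cnn1, Scube3, Ptprz1, Plin4, Cpe, Kcnmb1, Itih4 and Actg2. P2rx1, an ATP-gated channel of arterial muscle, stood at 94.9 and 67.6 CPM and had only 10 and 9 counts in the pooled classes, so its ratio to them is imprecise, with intervals of 153 to 4346 in HFD and 140 to 3457 in NC. Pcp4l1, a small protein related to a calmodulin regulator, was 246 (137 to 492) and 232 (137 to 426) times the pooled level. The order among genes with few pooled counts is therefore not firm. Cnn1, the actin-binding protein calponin, was 150 and 228 times the pooled level, and Kcnmb1, a subunit of the large-conductance potassium channel of muscle, 111 and 190 times. Actg2, the gamma-actin of visceral smooth muscle, was 99.8 and 140 times the pooled level. Only genes with at least 50 CPM in the class in both libraries could enter. Higd1b, Trpc6 and Vtn were below that level, so their absence carries no information. These ratios describe the class, because the authors' classes come from the same cells.

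Across the 10 pairs of library and class, the level of Sh3bgr was most like that of Acta2 (Pearson r = 0.995 on log2 of CPM plus 1), followed by Tpm2 (0.995), Lpp (0.992), Myl9 (0.990) and Myl6 (0.989). Tpm2, a tropomyosin that lies along the actin filament, stood at 4544 and 4257 CPM in the class and at 410 and 425 in myofibroblasts. The pairs share libraries and depth, and the order rests mostly on the class and myofibroblasts standing above the fibroblast classes.

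Adhesion and respiration genes were also high in the class. Of 30 integrin and adhesion genes at 10 CPM or more, 23 in HFD and 22 in NC were highest there, among them Itga1, a collagen receptor subunit, at 228 and 202 CPM against 17.2 and 16.1 in the pooled classes. Itga8, a receptor subunit for nephronectin, stood at 760 and 601 CPM, against 545 and 479. Of 41 nuclear-encoded genes of oxidative phosphorylation at that level, 36 and 34 were highest in the class, against 25.3% and 23.9% of all genes, and their sum was 13025 and 10458 CPM against 9261 and 7733 in the pooled classes. The mitochondrial read share, given above, was highest in the class as well, and its part in this was not tested.

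Cells of the class differed among themselves. The median cell had 12796 CPM of Acta2 in HFD, with quartiles of 9027 and 16573, and 12424 in NC, with quartiles of 8575 and 16455. Actc1 was more uneven, with quartiles of 572 and 2960 CPM around 1513 in HFD and of 295 and 4427 around 1753 in NC. Acta2 was thus similar from cell to cell and between libraries, whereas Actc1 ranged more widely.

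**Figure D2:**
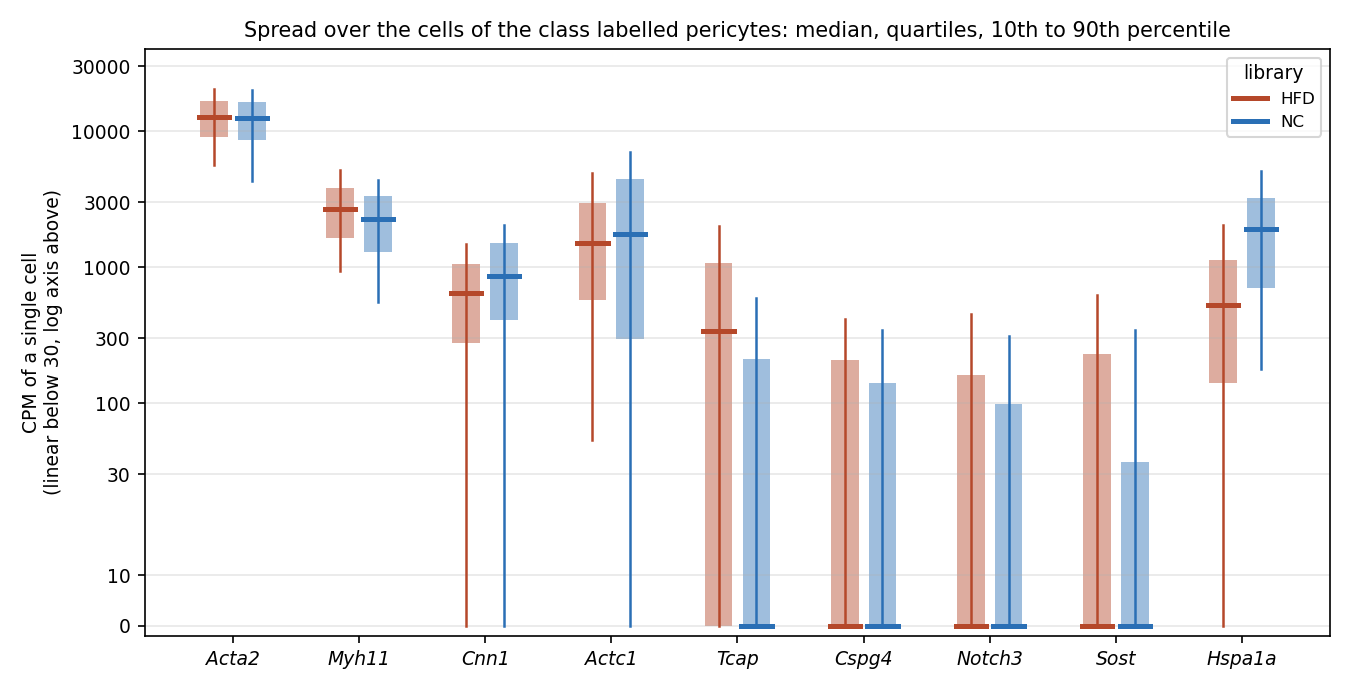
Level of single genes over the cells of the class, as CPM of a cell on an axis that is linear below 30 and logarithmic above, for HFD and NC. Short horizontal lines are medians, thick bars quartiles and thin vertical lines the 10th to 90th percentile. Acta2 overlaps between libraries, Tcap has a median of 339 CPM in HFD and 0 in NC, and Hspa1a has a median of 529 in HFD and 1909 in NC.

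Cells with and without Sost differed in other mural genes. This comparison, its genes and its panel were chosen after values had been seen. After thinning to 2000 counts, 119 HFD cells and 28 NC cells had a count of Sost. Notch3 stood at 64.7 CPM in HFD cells with Sost and 143 in those without, and at 36 and 93.5 in NC. Rgs5 went the other way, with 216 CPM in cells with Sost and 96.4 in cells without in HFD, and 93.1 and 40.9 in NC. Hhip was low in cells with Sost, at 20.3 against 139 CPM in HFD and 2.12 against 165 in NC. Des, the muscle intermediate filament protein, stood at 766 against 1002 CPM in HFD and 675 against 976 in NC. Eln, elastin, was higher with Sost, at 871 against 646 CPM and 920 against 646. Myh11 was higher with Sost, at 3225 against 2781 CPM in HFD and 2987 against 2295 in NC, as was Cnn1, at 860 against 745 and 1235 against 1014. Actc1 was lower, at 1646 against 2150 and 2160 against 2819, as was Actg2, at 854 against 930 and 880 against 1346. Tcap, Tagln and Myocd showed no shared direction. Tcap stood at 867 against 702 CPM in HFD and 171 against 188 in NC. Tagln stood at 10010 against 9765 and 9453 against 9862, and Myocd at 73.0 against 74.4 and 184 against 116. Acta2 differed little, at 13796 against 12480 CPM in HFD and 12379 against 12095 in NC. Notch3, Rgs5, Hhip, Des and Eln were thus among the genes with the same direction in both libraries. The cells with Sost were deeper, with median counts of 21454 against 19126 in HFD and 16618 against 15376 in NC. Depth and cell state cannot be told apart in this split beyond the thinning of the gene that defined it.

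For the diets, 2867 genes were measured well enough in the class to compare, by a minimum of 50 effective counts over both libraries and of 50 CPM in one or both. The ratio of HFD to NC was at least 1.5 in either direction for 381 genes, or 13.3%, of which 168 were higher in HFD (5.86%) and 213 lower (7.43%). These are size rules, not tests. The median log2 ratio was 0.05 and the median absolute log2 ratio 0.24. Of 367 such genes also measured in the pooled classes, 123 were past 1.5 in the same direction there, which is 33.5% of the genes past it in the class and 65.4% of the 188 past it in the pooled classes. The 12 highest and 12 lowest genes by the interval bound nearest to 1 were taken as named genes, of which 23 are described next. Named genes had to keep the ratio without the 10 cells with the most counts in each library, and 84 of the 310 genes past 1.5-fold that met the other filters did not. Those 10 cells are 1.68% of the class in HFD and 4% in NC. The setting thus removes a larger share of the NC cells and is no even check on genes higher in HFD. Ratios given below without the 10 cells carry the same imbalance.

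**Figure D3:**
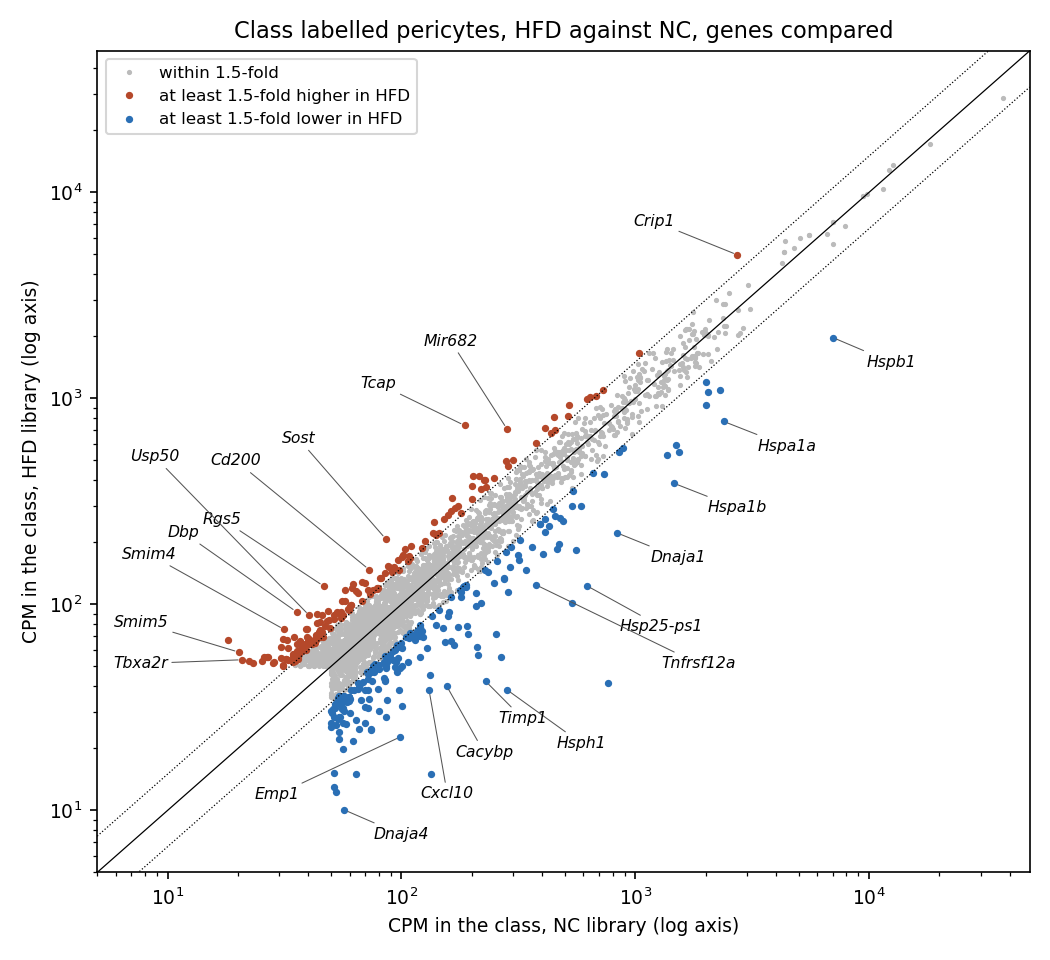
Level of 2867 genes in the class, as CPM in NC on the horizontal axis and CPM in HFD on the vertical axis, both logarithmic. The solid line marks equal levels, the dotted lines 1.5-fold, and 23 named genes are labelled; 168 genes lie above the dotted band and 213 below it.

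Tcap had the highest bound among the genes higher in HFD, at 738 CPM against 186 in NC, a ratio of 3.96 (95% interval 3.43 to 4.59, counting error only). A count was found in 69.5% of HFD cells and 34.4% of NC cells, and after thinning in 47.3% and 22.8%. The ratio was 3.13 in the pooled classes, and myofibroblasts carried 412 and 155 CPM, so the difference was not restricted to the class. Actc1 and Tcap were counted together in 388 HFD cells (65.1%) and 74 NC cells (29.6%, 24 to 35.7). Actc1 itself was lower in HFD, 2039 against 2748 CPM, within 1.5-fold.

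Mural signalling genes were among the higher ones. Rgs5 stood at 123 CPM in HFD and 46.5 in NC, a ratio of 2.64 (1.96 to 3.61). It was 9.19 under the stricter cell filter and 1.91 after thinning, and 10 cells held 41.9% and 56.1% of its counts. In the pooled classes, where Rgs5 was nearly absent, the ratio was 0.798 (0.332 to 1.82). Sost stood at 208 and 85.7 CPM, a ratio of 2.42 (1.95 to 3.05). Its ratio was 6.19 under the stricter filter, 1.83 with each cell weighted equally and 1.77 after thinning. In the pooled classes, where Sost was nearly absent too, the ratio was 17.2 (3.09 to 385). Tbxa2r, the thromboxane receptor that constricts vessels, stood at 53.9 and 20.9 CPM, a ratio of 2.58 (1.66 to 4.20), and 10 cells held 67.4% of its NC counts, with a ratio of 6.42 without those cells and 1.58 after thinning. Each of these genes was higher in HFD by more than its counting error. That error measures neither the spread between animals nor the crowding of a gene's counts in few cells. Cd200, an immune-inhibitory surface ligand, stood at 147 and 72.8 CPM, a ratio of 2.03, and of 1.73 in the pooled classes. Crip1, a small LIM protein, stood at 4969 and 2735 CPM, a ratio of 1.82 (1.75 to 1.89), and at 1.32 in the pooled classes.

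A clock gene and less studied genes filled much of the rest. Dbp, an output factor of the circadian clock, stood at 92.0 and 35.6 CPM, a ratio of 2.58. Its ratio was 4.06 without the 10 cells and 1.54 in the pooled classes. Smim5, Smim4 and Usp50 had ratios of 2.90, 2.4 and 2.19, and 2.61, 2.13 and 1.67 in the pooled classes. For Smim5, 10 cells held 60.7% of the NC counts, and the ratio was 5.42 without them and 4.85 under the stricter filter. Mir682 had a ratio of 2.51 (710 against 283 CPM), and of 2.44 in the pooled classes and 2.41 in myofibroblasts, so the difference was not restricted to the class. Since a 3′ kit does not capture mature miRNAs, what these values count is uncertain.

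Heat shock genes led the lower side. Hsph1, a cochaperone of the HSP70 family, stood at 38.6 CPM in HFD and 282 in NC, a ratio of 0.137 (0.109 to 0.171), against 0.443 in the pooled classes. Hspa1a and Hspa1b, the inducible HSP70 genes, stood at 772 and 2391 CPM and at 387 and 1465 CPM, with ratios of 0.323 and 0.264. They are near-identical copies of each other, so the split of reads between them is uncertain. Hspb1, the small heat shock protein that binds actin filaments, stood at 1972 and 7006 CPM, a ratio of 0.281 (0.272 to 0.291), and its copy Hsp25-ps1 at 123 and 619 CPM, a ratio of 0.199. All of these genes were lower in HFD by more than counting error. In the pooled classes the ratios were 0.887 for Hspa1a, 0.806 for Hspa1b, 0.730 for Hspb1 and 0.570 for Hsp25-ps1. In myofibroblasts they were 0.524 for Hspa1a, 0.607 for Hspa1b, 0.305 for Hsph1 and 0.692 for Hspb1. These genes were thus lower in HFD outside the class too, by less.

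Dnaja1, Dnaja4 and Cacybp, which assist chaperones or protein turnover, had ratios of 0.266, 0.177 and 0.258. Tnfrsf12a, the receptor of the cytokine TWEAK, stood at 124 CPM in HFD and 376 in NC, a ratio of 0.331. Timp1, an inhibitor of matrix metalloproteinases, stood at 42.3 and 229 CPM, a ratio of 0.184, and 10 cells held 69.1% of its counts in HFD and 83.9% in NC. Emp1, a membrane protein, stood at 22.8 and 99.1 CPM, a ratio of 0.230, with 53.2% and 74.1% of its counts in 10 cells. Cxcl10, an interferon-induced chemokine, stood at 38.3 and 131 CPM, a ratio of 0.292, with 79.9% and 90.3% in 10 cells, and its ratio was 0.98 among the cells that the second annotation also calls peri. Without those 10 cells the ratios were 0.337 for Timp1, 0.407 for Emp1 and 0.591 for Cxcl10, and Emp1 was at 0.540 under the second annotation. After thinning Timp1 was at 0.361. In the pooled classes the ratios were 0.618 for Dnaja1, 0.814 for Dnaja4 and 0.569 for Cacybp. They were 0.551 for Tnfrsf12a, 0.487 for Timp1, 0.770 for Emp1 and 0.647 for Cxcl10 there.

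**Figure D4:**
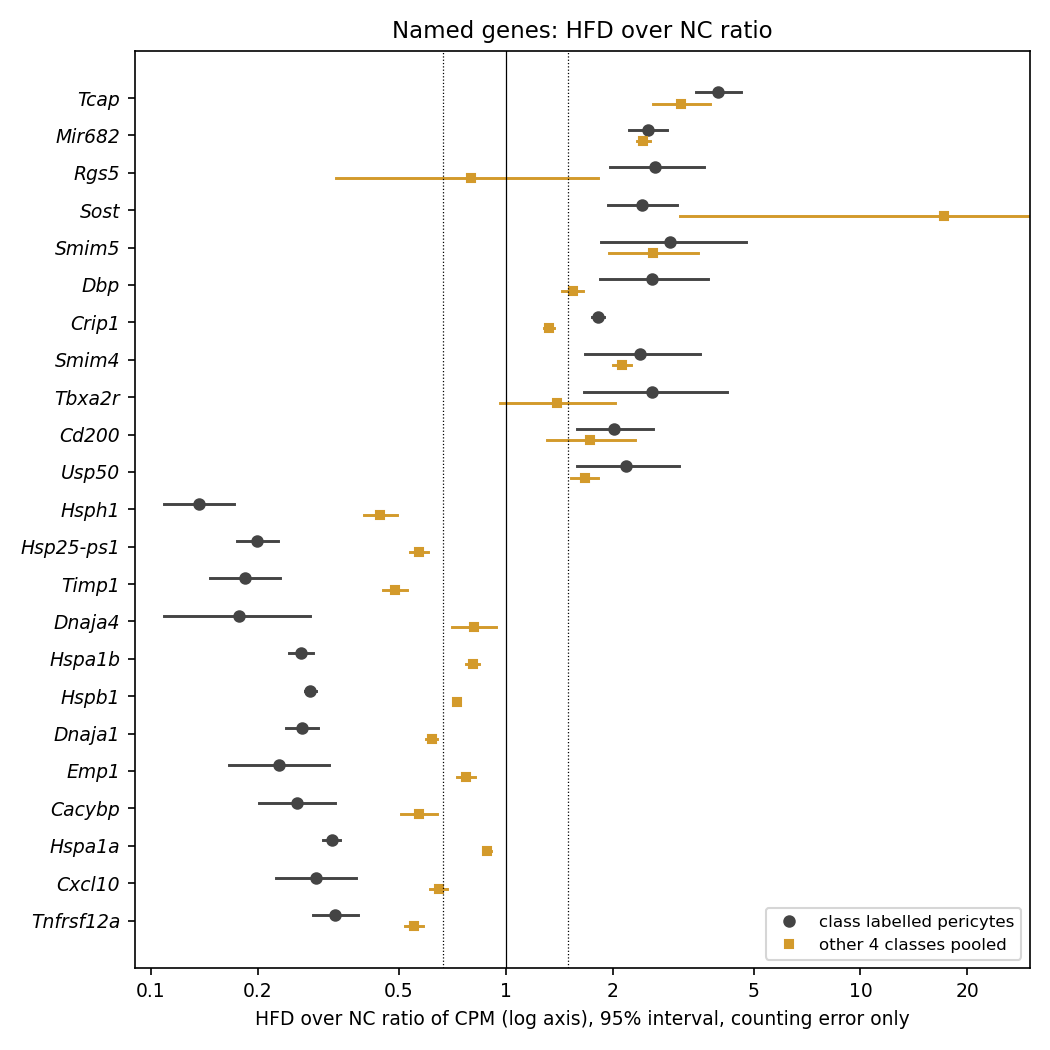
Ratio of HFD to NC for 23 named genes on a logarithmic axis, in the class labelled pericytes (circles) and in the other 4 classes pooled (squares), with 95% intervals that cover counting error only. Dotted lines mark 1.5-fold. Rgs5 stands at 2.64 in the class and 0.798 in the pooled classes, and Hsph1 at 0.137 and 0.443.

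The contractile list stayed near the level of all genes. Of 25 contractile genes compared, 0 were higher by 1.5-fold and 1 was lower, against 5.86% and 7.43% of all genes, and the median log2 ratio was 0.11, against 0.05 over all genes. The 1 lower gene was Myocd, which encodes myocardin, at 74.1 CPM in HFD and 123 in NC, a ratio of 0.603 (0.483 to 0.755). Cnn1 stood at 770 and 1038 CPM (0.742) and Actg2 at 913 and 1296 CPM (0.704), while Mustn1 stood at 1475 and 1024 (1.44) and Myh11 at 2878 and 2369 (1.21). Acta2 and Tagln had ratios of 1.05 and 1.0.

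Vascular, pericyte and Notch genes leaned higher. The shares over all genes were 5.86% higher and 7.43% lower. In the pooled classes the median log2 ratio was 0.30 for the vascular list and 0.23 for the pericyte list. It was 0.11 there for the Notch list and 0.04 for genes that control contraction. Of 8 vascular smooth muscle genes, 3 were higher and 1 was lower, with a median log2 ratio of 0.44. The higher ones were Sost, Rgs4 (88.4 against 45.8 CPM, a ratio of 1.93) and Heyl, a Notch target (117 against 57.4 CPM, a ratio of 2.04), and the lower one was Map3k7cl (36 against 56.0 CPM), which was at 0.753 without the 10 cells. The ratio of Rgs4 was 3.10 under the stricter filter. Of 8 pericyte genes compared, 2 were higher, Rgs5 and Gucy1a1, and 0 lower, all 8 had ratios above 1, and the median was 0.49. Gucy1a1, a subunit of the nitric oxide receptor, stood at 293 and 170 CPM, a ratio of 1.73. Of 5 Notch genes, 2 were higher, Heyl and Hey2 (53.0 against 25.4 CPM, a ratio of 2.08, and 3.14 without the 10 cells), and the median was 0.53. Notch3 and Hes1 had ratios of 1.44 and 1.4. Of 21 genes that control contraction, 4 were higher and 0 lower, Gucy1a1, Rgs4, Rgs5 and Pde5a, the enzyme that breaks down cyclic GMP (163 against 107 CPM, a ratio of 1.52). Pde5a was below 1.5 without a cell filter (1.4), when centred (1.47) and under the second annotation (1.46). Several of these genes belong to more than 1 list, so the counts overlap.

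Regulator, collagen and growth factor lists held genes past 1.5-fold on both sides, whereas adhesion and basement membrane lists did not. Beside these counts, 5.86% of all genes compared were higher and 7.43% lower. Of 15 genes of the serum response factor and myocardin list, 1 was higher and 2 were lower, with a median log2 ratio of 0.14: Tbx2, a developmental transcription factor, at 68.2 and 31.1 CPM (2.19, but 1.43 after thinning and 3.37 without the 10 cells), Ccn2, a matrix growth factor, at 1206 and 2006 CPM (0.601), and Myocd. Of 25 adhesion genes, 0 were higher and 2 lower, Itga5, the fibronectin receptor subunit (114 against 287 CPM, a ratio of 0.398), and Filip1l (428 against 734 CPM, 0.584, and 0.779 under the stricter filter). Of 13 basement membrane genes, 0 passed 1.5-fold either way, with a median of -0.11. Of 20 collagen and elastic fibre genes, 1 was higher and 2 were lower, Mfap4, a microfibril protein (402 against 227 CPM, a ratio of 1.77, and 1.49 without the deepest cells), Lox, the crosslinking enzyme lysyl oxidase (42.7 against 85.0 CPM, 0.503), and Timp1. Lox was at 0.685 without the 10 cells and 0.708 after thinning. Of 21 growth factor and morphogen genes, 2 were higher and 4 were lower. Id2, an inhibitor of transcription factors, stood at 400 and 225 CPM (1.77), and Tgfb2, a ligand of the TGF-beta family, at 78.2 and 190 CPM (0.412), while in the pooled classes the ratio of Tgfb2 was 1.09. Wif1, a WNT inhibitor, stood at 15.1 and 134 CPM (0.112) in 3.52% and 4.40% of the cells, and its ratio was 1.56 without the cells that hold cartilage or Schwann cell genes, and 7.74 without the 10 cells.

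Energy metabolism genes leaned higher together. Among all genes compared, 5.86% were higher and 7.43% lower, and the median log2 ratio was 0.05. Of 39 oxidative phosphorylation genes compared, 6 were higher, 0 were lower and all 39 had ratios above 1, with a median log2 ratio of 0.29 in the class and 0.23 in the pooled classes. Ndufa5, of complex I, stood at 301 and 175 CPM (1.72), Ndufs6, also of complex I, at 259 and 152 (1.70), Cox6c, of complex IV, at 1099.6 and 727 (1.51, and 1.46 when centred) and Atp5e, of the ATP synthase, at 681 and 438 (1.56). Of 14 fatty acid oxidation genes, 3 were higher and 0 lower, with a median of 0.29. Among the higher ones were Acaa2, a thiolase (76.3 against 39.5 CPM, 1.93, and 3.02 without the 10 cells), and Acadm, a dehydrogenase of medium chains (99.8 against 61.0 CPM, 1.64, and 1.45 without a cell filter). Of 7 clock genes, 3 were higher and 2 lower. Nr1d1, a repressor of the clock loop, stood at 125 and 61.9 CPM (2.02) and Hlf at 55.3 and 26.8 CPM (2.07), whereas Nfil3 stood at 52.5 and 107 CPM (0.493) and Bhlhe40 at 48.9 and 85.7 CPM (0.571, and 0.921 under the second annotation). Genes of the clock thus stood on both sides. The median mitochondrial read share, 6.13% in HFD and 5.72% in NC, moved with the respiratory genes, and its part in them was not tested.

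Stress lists leaned lower, beside 5.86% of all genes higher and 7.43% lower. Of 21 cytosolic heat shock genes compared, 0 were higher and 18 lower, and the median log2 ratio was -1.12, against -0.46 in the pooled classes. The summed level of the 24 genes of that list was 7554 CPM in HFD and 20232 in NC in the class, and 7616 and 10150 in the pooled classes. Of the 24 genes, 7 were highest in the class in HFD and 19 in NC, against 25.3% and 23.9% of all genes, so the HFD count was near that background. In NC the class thus carried more of these transcripts than any other class, and in HFD about as many as the pooled classes. Of 10 glucocorticoid target genes, 0 were higher and 6 lower, with a median of -0.84. In the pooled classes the median was -0.56 and 4 were lower. Tsc22d3, an inhibitor of inflammation induced by glucocorticoids, stood at 24.9 and 74.4 CPM (0.335, but 0.679 after thinning), Errfi1 at 146 and 342 CPM (0.428), and Mt2, a metallothionein, at 195 and 472 CPM (0.413). Of 13 genes of the unfolded protein response, 0 were higher and 5 lower, with a median of -0.45 and -0.55 in the pooled classes, among them Hspa5, an HSP70 chaperone inside the endoplasmic reticulum (299 against 585 CPM, 0.511). Without the 10 cells with the most counts 3 genes of the list were lower. Of 23 immediate early genes, 0 were higher and 4 lower, and 2 were lower without those cells. Their median was -0.24 in the class and 0.02 in the pooled classes. Fos stood at 5815 and 4365 CPM (1.33), and Myc at 34.3 and 86.4 (0.397). Of 7 chemokines, 0 were higher and 4 lower, of which 2 remained past 1.5-fold without the 10 cells. Their median was -1.07 in the class and -0.41 in the pooled classes, where 3 were lower. Ccl2, a ligand that draws monocytes, stood at 55.7 and 268 CPM (0.208) and was counted in 2.52% and 5.20% of the cells, with a ratio of 0.482 without the 10 cells. Cxcl14 stood at 71.6 and 254 CPM (0.282), and was 1.28 without the 10 cells, where Cxcl1 was at 0.699.

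**Figure D5:**
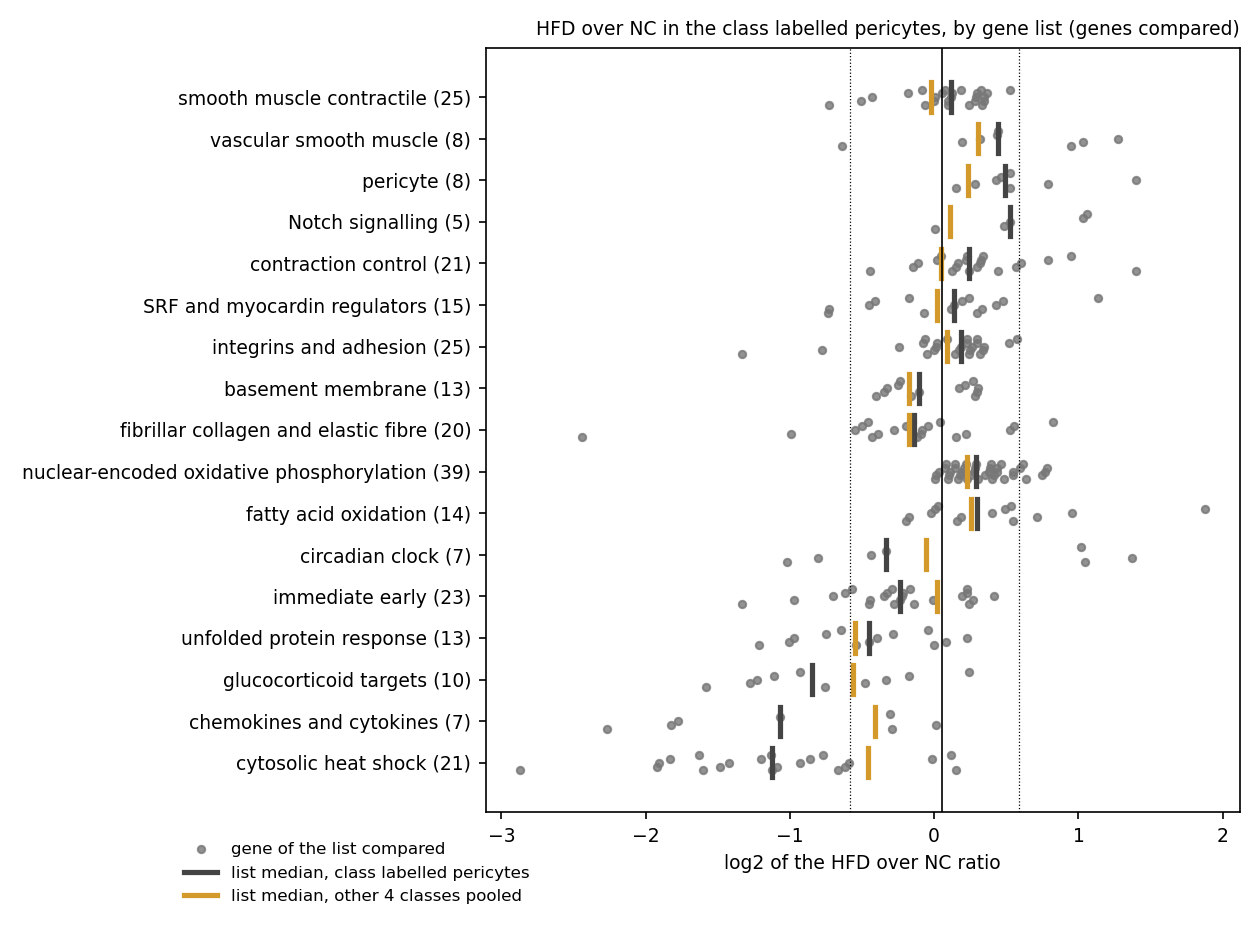
Log2 ratio of HFD to NC in the class for the genes compared in 17 lists, with 1 point per gene and the number of genes in brackets. Dark bars are list medians in the class and light bars medians in the other 4 classes pooled; the solid line is the median of all genes compared and the dotted lines mark 1.5-fold. The heat shock list lies lowest, with a median of -1.12 in the class and -0.46 in the pooled classes, and the Notch list highest, at 0.53.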

How the data were processed

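Lung stromal cells of 2 libraries, 1 per diet, were analysed from the deposited tables of single cells. The gene values are log2 of counts per 1000000 plus 1, made by the authors and read from the values, since the file headers name only genes. Build mm39 and STAR are given per the submitters' processing notes, and the version, molecule counting and cell filters are not given in the sources used here. The authors also deposited, per the file headers, the count of detected genes, the percent of mitochondrial reads and the total as an estimated count, which is not whole in some cells. Counts were recovered from the log2 values and the total (98.8% of nonzero values in HFD and 99.0% in NC came within 0.01 of a whole number) and rounded. They were not taken as single molecules, since the mean count of cells with a gene was well above 1 for genes found in few cells. Effective counts are counts over a variance factor (4.85 for HFD, 3.98 for NC), estimated from genes in 0.1% to 1% of cells, and give exact Poisson 95% intervals of ratios. Of 21014 genes, 20180 had a symbol. Cells with at least 500 genes and at most 10% mitochondrial reads were kept; no doublet caller was run.

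The members and the 31 gene lists were chosen with earlier results of these data known. Named genes had a count in at least 10% of cells of the class in 1 library and kept 1.5-fold without the 10 cells with the most counts; up to 4 genes per list were named by their interval, beside genes that a count of 5 or fewer singled out after values were seen. Mitochondrial, ribosomal, predicted and haemoglobin or immunoglobulin genes were not ranked. The ratio script was tested on simulated data. Python 3.11.15, numpy 2.4.6, scipy 1.17.1 and pandas 2.3.3 were used. Alternatives were the cell filter, scaling, weighting, thinning, filters on low values and the intervals. Of the 24 genes named by the rule for diets, 1 is not reported here.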

Additional observations from a re-analysis of the deposited data

How the results depend on the processing

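No paired analysis was possible because each diet has 1 library. With at least 1000 genes and at most 5% mitochondrial reads, the class was 4.36% of HFD and 1.51% of NC cells; without the 5% of cells with the highest totals 7.0% and 1.94%; without a filter it was 3.53% of NC cells, and among doubly annotated cells it was 11.1% of HFD cells. The main setting gave 168 higher and 213 lower genes (44.1% higher). The strict filter gave 370 and 295 (55.6%), and thinning 287 and 249 (53.5%). No minimum CPM gave 800 and 475 (62.7%), and centring on the median gene 142 and 243 (36.9%). Leaving out 10 cells per gene gave 530 and 115 (82.2%), where 10 cells are 1.68% of the class in HFD and 4% in NC. The causes of these shifts were not tested. Cxcl14 turned to 1.28 without those 10 cells and to 1.27 in cells that the second annotation calls peri, and Wif1 to 7.74 without those cells and 1.56 without cartilage or Schwann gene cells. Apart from the setting without 10 cells, which the rule for naming fixed, the 24 named genes kept their call, except Cxcl10 at 0.98 under the second annotation. That setting, the cartilage and Schwann setting, the one without the deepest cells of the class and the share among doubly annotated cells were chosen after seeing the data. Intervals spanned a median of 1.59-fold, or 1.25-fold without the variance factor.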

Other observations

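A pair of lipid-handling genes, chosen after their values were seen, stood higher in the class than in the other stromal classes. Fabp4, a carrier of fatty acids, stood at 148 CPM in HFD and 133 in NC, against 1.4 and 2.11 in the other 4 classes pooled, and was counted in 38.8% and 28.0% of the cells of the class. Plin4, a coat protein of lipid droplets, stood at 91.2 and 61.5 CPM, 182 and 130 times the pooled level. Of the fatty acid oxidation list, 6 of 22 measured genes in HFD and 6 of 20 in NC were highest in the class, against 25.3% and 23.9% of all genes. For Fabp4 the ratio of HFD to NC was 1.11 (0.920 to 1.35, counting error only).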
